A study of Mus musculus with 18 samples.

Results

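Neuronal fate homeobox and bHLH factors are 46 transcription factors known for giving neurons and endocrine cells their type. They were picked by name, with no measured value in the rule but with earlier results of these data known, and each symbol led to 1 Ensembl identifier among the 46078 genes of the RNA-seq count table. A start-site peak, meaning an open chromatin region with any base within 1000 bp of an annotated transcript start, was found for 41 of the 46. These 41 factors had 67 such peaks of 111664 peaks in the ATAC-seq table, and *Neurod6*, *Nhlh1*, *Nhlh2*, *Otx2* and *Pou3f4* had none.

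The libraries came from small cell lung cancer (SCLC) cells of genetically engineered mice, with 3 RNA-seq and 3 ATAC-seq libraries for each of 3 genotypes. All mice carried conditional alleles of *Rb1*, *p53* (*Trp53*) and another retinoblastoma family gene, given as *Rbl1* in the sample labels and as *Rbl2* in the study's description of the crosses, and these mice without a further allele are named *TKO*. *TKO;Carm1* mice also carried a conditional allele of *Carm1*, which encodes an arginine methyltransferase (CARM1 knockout). In *TKO;NfibR388K* mice, a germline knock-in put lysine in place of the arginine of NFIB that CARM1 methylates (NFIB mutant), so that this allele was not limited to cells reached by Cre. In all 3 genotypes an adenovirus with Cre was put into the trachea at 8 weeks of age, and cells were taken 28 weeks later from the lungs of 3 animals per genotype. By the study's methods the cells were sorted for a tdTomato reporter that Cre switches on. Both tumors and cancer cell lines are named as the source for ATAC-seq, and which applies to a library was not resolved.

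During development these factors act in turn. Basic helix-loop-helix (bHLH) factors such as the neurogenins bind E-box DNA as dimers with E-proteins and commit a precursor to a neural fate, and homeobox factors of the LIM, POU, Pax, Onecut and Engrailed families then fix the type of neuron or endocrine cell. Myt zinc fingers and Scratch repressors shut down non-neuronal genes, and REST, a repressor found in non-neural cells, keeps many neuronal genes silent. SCLC is a neuroendocrine tumor, and many of its cells use neuronal programs.

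The promoters of 4 factors are shown because the results turn on them: *En1* and *Lhx6* are the 2 that were higher in both mutants in expression and at the start site, while *Prox1* and *Myt1* were among the highest of the 46 in *TKO*. Each run is the 250 bases before a RefSeq start (GRCm38.p6), read 5′ to 3′ on the strand of the gene, and all 4 starts lie inside the main start-site peak of their gene. Capitals mark the general E-box CANNTG, the core that bHLH dimers bind. The stretches are chr1:120602237-120602486 on the plus strand for *En1*, chr2:36105409-36105658 on the minus strand for *Lhx6*, chr1:190170828-190171077 on the minus strand for *Prox1* and chr2:181766779-181767028 on the plus strand for *Myt1*.
En1: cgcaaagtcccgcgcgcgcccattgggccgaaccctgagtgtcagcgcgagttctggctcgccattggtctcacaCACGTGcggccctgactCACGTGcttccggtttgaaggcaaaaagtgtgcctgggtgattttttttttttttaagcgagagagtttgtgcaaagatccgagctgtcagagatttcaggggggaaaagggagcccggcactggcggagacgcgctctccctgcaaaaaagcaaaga
Lhx6: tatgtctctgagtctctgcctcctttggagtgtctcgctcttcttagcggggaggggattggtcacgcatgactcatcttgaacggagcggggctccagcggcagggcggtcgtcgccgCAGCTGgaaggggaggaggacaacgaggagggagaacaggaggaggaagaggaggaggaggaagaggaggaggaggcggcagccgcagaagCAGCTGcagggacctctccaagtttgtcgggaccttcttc
Prox1: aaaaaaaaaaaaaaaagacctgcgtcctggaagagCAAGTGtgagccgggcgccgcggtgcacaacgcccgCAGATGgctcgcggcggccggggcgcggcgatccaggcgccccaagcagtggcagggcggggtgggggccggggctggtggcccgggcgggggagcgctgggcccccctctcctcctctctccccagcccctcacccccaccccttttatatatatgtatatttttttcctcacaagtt
Myt1: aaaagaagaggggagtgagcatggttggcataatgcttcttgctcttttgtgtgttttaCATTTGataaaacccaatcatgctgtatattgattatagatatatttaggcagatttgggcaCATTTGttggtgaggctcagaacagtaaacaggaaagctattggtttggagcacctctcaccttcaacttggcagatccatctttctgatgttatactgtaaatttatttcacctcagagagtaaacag

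Each of the 4 promoters held 2 E-boxes. They began 175 and 158 bases before the start in *En1*, 131 and 40 in *Lhx6*, 215 and 179 in *Prox1*, and 191 and 129 in *Myt1*. A promoter sequence was at hand for 36 of the 46 factors, and 47.2% of these 36 held the general E-box on either strand, against 66.2% of 32851 promoters of the same length. The E-box CAGATG that neurogenic bHLH factors prefer is contained in the general one and was present in 13.9% of the 36 and in 14.4% of all. TTGGC, the binding core of the NFI family to which NFIB belongs, stood in 52.8% of the 36 against 41.5%. The full NFI palindrome was in none of the 36 and in 0.0365% of all promoters. The octamer ATGCAAAT of POU factors was in 2.78% against 1.601%, the LIM-homeodomain core TAATTA in 5.56% against 4.84%, the palindrome that Ebf factors bind in 2.78% against 0.779% and the Myt1 core AAGTTT in 2.78% against 12.8%. These are descriptions of letters in a window and were not tested.

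Sequencing depth was 15848866 to 20915057 reads counted in genes per RNA-seq library and 26917178 to 47653979 reads counted in peaks per ATAC-seq library. In CPM, the counts of a library scaled to a common library size with TMM factors, 3 counts equal 0.131 to 0.203 for a gene and 0.0576 to 0.127 for a peak. *Carm1*, counted over the whole gene, was at 97.5, 103 and 44.4 CPM in *TKO* and at 63.3, 79.1 and 50.7 CPM in the CARM1 knockout, so the groups overlapped. Exons outside a deleted part still count, and which exons the allele loses is not given in the sources used here, so this does not check the label, and the genotypes below are those of the labels. For *Nfib* the *TKO* libraries held 419 to 579 CPM, those of the CARM1 knockout 74.4 to 216 CPM and those of the NFIB mutant 83.3 to 105 CPM, where the change of 1 codon would not show in counts. Summed over 12 neuroendocrine genes, *TKO* libraries held 1775 to 3917 CPM, CARM1 knockout library 3 held 1953 CPM, much of it from *Calca*, and the other 5 mutant libraries held 33.6 to 188 CPM. Summed over 6 fibroblast genes, *TKO* libraries held 11.1 to 63.1 CPM and the 6 mutant libraries 9470 to 25743 CPM, although the cells were sorted for tdTomato. Of the 12 neuroendocrine genes, 1 was called lower in the CARM1 knockout and 11 in the NFIB mutant, and of the 6 fibroblast genes 6 and 5 were called higher. Pericyte genes summed to 8.08 to 13.2 CPM in *TKO* and 208 to 1010 CPM in the mutants (2 and 3 of 6 called higher). Genes of leukocytes other than B cells summed to 3.71 to 55.9 CPM in *TKO*, 183 to 2802 CPM in the CARM1 knockout (7 of 8 higher) and 26.8 to 529 CPM in the NFIB mutant (2 higher). Lung epithelial genes reached 49.9 CPM in *TKO*, 653 CPM in CARM1 knockout library 3 and 2552 CPM in NFIB mutant library 1 (of 10, 1 lower in each mutant and 3 higher in the NFIB mutant). Sums stayed at or under 73.8 CPM in every library for endothelium (1 of 6 higher in each mutant, 1 lower in the NFIB mutant), 12.9 CPM for Schwann cells (1 of 4 lower in each) and 94.6 CPM for mesothelium (1 of 3 higher in the CARM1 knockout). In such bulk libraries, fewer cells of a type and less RNA per cell cannot be told apart, and the part that cell makeup had in the results below was not tested.

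The summed level of the factors was lower in every mutant library than in any *TKO* library. Summed over the 46 factors, *TKO* libraries held 873, 1244 and 1066 CPM, the CARM1 knockout libraries 93.7, 59.0 and 299 CPM, and the NFIB mutant libraries 152, 141 and 107 CPM, so that the groups did not overlap. Between 19 and 24 factors reached 1 CPM in a *TKO* library, 7, 7 and 13 in the CARM1 knockout libraries and 9, 12 and 6 in the NFIB mutant libraries. A mean of at least 1 CPM in at least 1 genotype was reached by 30 factors, which are described one by one below. Of these, 25 passed the filter on low counts and were tested, so a share of those tested is no share of all 46. Some of the 25, such as *Lhx1* and *Tlx3*, passed through *TKO* alone, which by itself favours lower calls. Others, such as *En1*, passed through the mutants alone. The filter was the same for all genes tested, and how many of them passed in this way was not counted. By the quasi-likelihood test of edgeR, with p-values adjusted by Benjamini-Hochberg over 15514 genes, a call needed an adjusted p under 0.1 and a log2 fold change of at least 0.8 in size. By this rule 12 factors were lower and 3 higher in the CARM1 knockout, against 18.3% lower and 20.5% higher of all genes tested. In the NFIB mutant 14 were lower and 3 higher, against 23.5% and 22.3% of all genes tested. The same 9 factors were lower and the same 3 higher in both, and the mutants share the *TKO* libraries as their control. How many of all genes tested were called alike in both was not counted. Every mutant library was below every *TKO* library for 12 of the 25 tested factors, against 23.2% of genes tested, and above for 3, against 22.3%. Over all 46, with levels under 3 counts set to 3 counts, the median log2 ratio to *TKO* was -2.05 in the CARM1 knockout and -2.04 in the NFIB mutant, where a gene at 0 in every library, such as *Otx2*, comes to 0.42 and 0.45 from the library sizes alone. The smallest p that an exact permutation of 3 against 3 libraries can give is 0.1, so no such test is given for single factors.

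**Figure D1:**
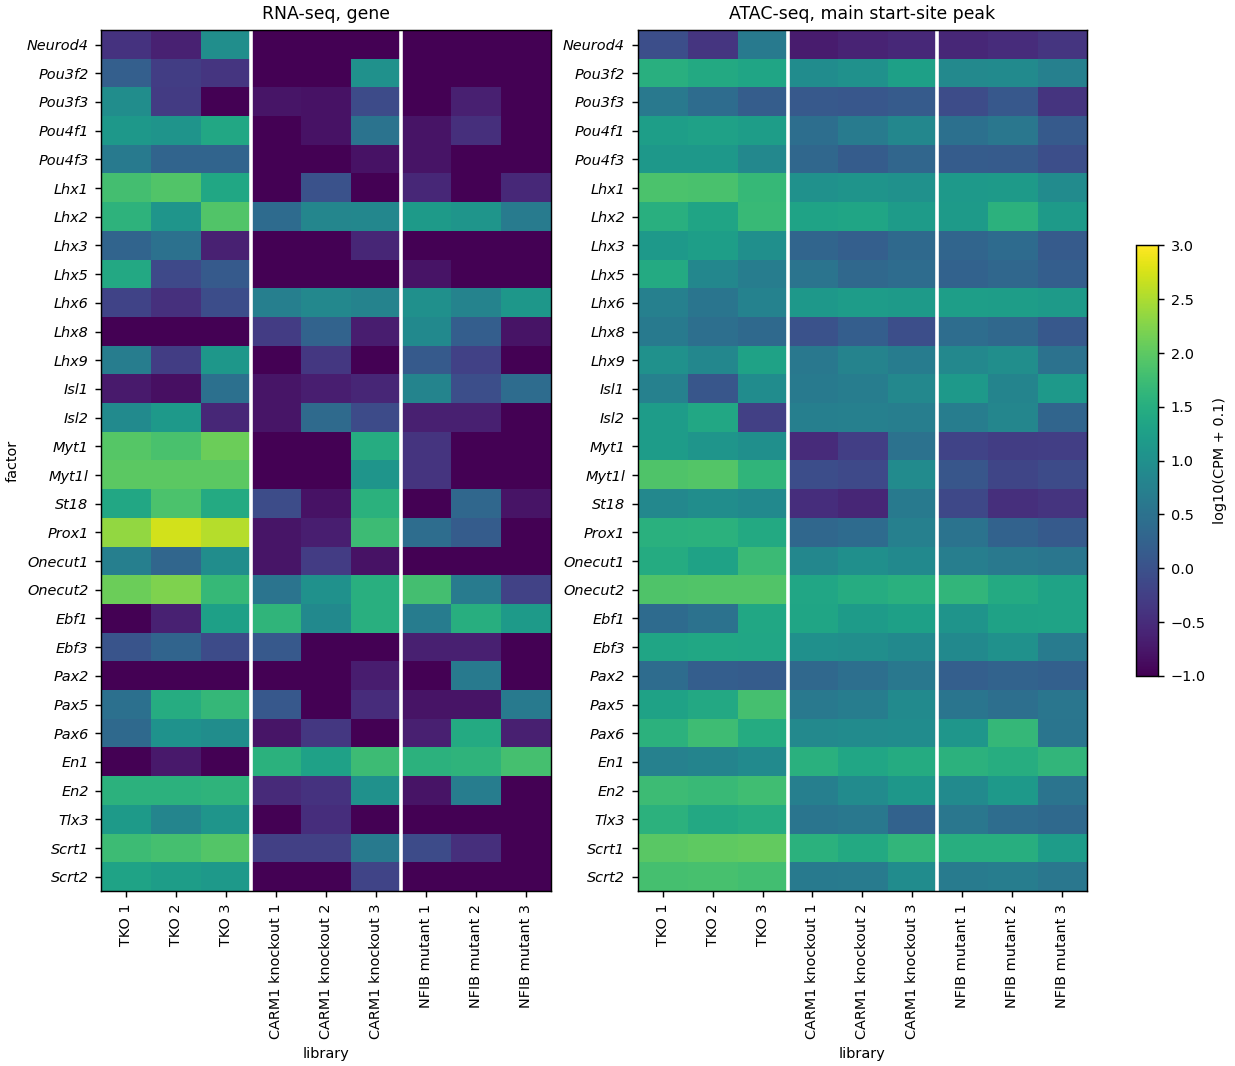
Level of the 30 factors of at least 1 CPM (rows) in each library (columns), as log10(CPM + 0.1), for the gene in RNA-seq (left) and for the start-site peak with the most counts in ATAC-seq (right), with white lines between the genotypes. *En1* and *Lhx6* were bright in the 6 mutant libraries and dim in *TKO*, most others the reverse, and CARM1 knockout library 3 was brighter than the other mutant libraries for *Prox1*, *Myt1*, *Myt1l* and *St18*.

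Accessibility at the start sites was lower for most factors too. The same test, over 111116 peaks with a log2 fold limit of 0.5, called 45 of the 67 start-site peaks lower and 5 higher in the CARM1 knockout, against 34.6% and 21.2% of the start-site peaks of all genes and 32.4% and 38.7% of all peaks. In the NFIB mutant 42 were lower and 7 higher, against 38.6% and 21.6% of start-site peaks and 34.0% and 39.3% of all peaks. At this TMM scaling, the share lower was thus above that of all start-site peaks and the share higher below it. Lower in both were 40 peaks and higher in both 5, and the share of all start-site peaks called alike in both was not counted. Every mutant library was below every *TKO* library for 37 peaks, against 36.3% of start-site peaks tested, and above for 5, against 18.6%. These splits moved with the scaling. Scaling by library totals alone moved the median over all peaks up by 0.58 and 0.57 on the log2 scale and gave 34 lower and 9 higher in the CARM1 knockout and 34 and 12 in the NFIB mutant. Scaling by start-site peaks of genes of even expression, the kind that the study describes, moved this median up by 0.41 and 0.48. With it, 38 were lower and 7 higher in the CARM1 knockout, and 34 and 11 in the NFIB mutant. Of all 111116 peaks, it called 29210 lower and 49265 higher in the CARM1 knockout, and 30061 and 50984 in the NFIB mutant. The shares over all start-site peaks were not worked out at these other scalings. A gene and at least 1 of its start-site peaks were called in the same direction for 14 of the 25 tested factors in the CARM1 knockout, 12 lower and 2 higher, against 12.4% and 10.9% of the 14387 genes tested that had such a peak. In the NFIB mutant there were 16, 14 lower and 2 higher, against 17.6% and 11.6%. As with the calls of genes, factors that passed the filter through *TKO* alone favour the lower side here. *Lhx8* was the 1 factor called higher without such a peak in either mutant.

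Proneural and neuronal differentiation bHLH factors, which start neurogenesis, were the least expressed family. Of its 8 members only *Neurod4* reached 1 CPM, at 0.288, 0.131 and 9.36 CPM in *TKO* and 0 in all 6 mutant libraries. Its level was thus high in *TKO* library 3 alone, and the gene was not tested. Measured against 3 counts in each library, the *TKO* mean was at least 17.9-fold higher than the CARM1 knockout and at least 17.5-fold higher than the NFIB mutant. The peak at the *Neurod4* start was at 0.828, 0.309 and 4.39 CPM in *TKO* and at 0.103 to 0.314 CPM in the mutants, with a log2 fold change of -3.57 ± 0.91 (SE, adjusted p = 0.00583) in the CARM1 knockout and -2.92 ± 0.87 (adjusted p = 0.0124) in the NFIB mutant. *Neurog2*, a proneural factor of the cortex and spinal cord, stayed at or under 0.336 CPM in every library, yet its start site was open at 25.2, 26.4 and 31.6 CPM in *TKO*. This peak stood at 10.95 to 15.4 CPM in the CARM1 knockout and 12.1 to 19.8 CPM in the NFIB mutant, below *TKO* in every library. All 6 start-site peaks of the family, at *Neurod2*, *Neurod4*, *Neurog1*, *Neurog2* and *Neurog3*, were lower in both mutants at the TMM scaling. Over the start-site peaks of all genes, 34.6% were lower in the CARM1 knockout and 38.6% in the NFIB mutant. The *Neurod2* call was near the limit in the CARM1 knockout, at -0.81 ± 0.34 (adjusted p = 0.0551). *Neurog3*, the factor that founds islet endocrine cells, shares 16.3% of its exon bases with a gene on the other strand. Reads in that shared part cannot be told apart without strand.

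POU factors, which place sensory and other neurons in their classes, had 7 members, of which 4 reached 1 CPM and 2 were tested. *Pou4f1*, a sensory neuron factor, was at 13.4, 11.7 and 25.3 CPM in *TKO*, at 0, 0.0583 and 3.25 CPM in the CARM1 knockout and at 0.0607, 0.246 and 0 CPM in the NFIB mutant. All mutant libraries were below *TKO*. The log2 fold change was -7.26 ± 2.05 in the NFIB mutant (adjusted p = 0.0245) and -3.91 ± 1.70 in the CARM1 knockout, which was not called (adjusted p = 0.107) and was called without CARM1 knockout library 3 at -8.77. DESeq2 and scaling by library totals alone also called *Pou4f1* in the CARM1 knockout. *Pou4f3*, known from hair cells of the ear, was at 4.17, 1.83 and 1.85 CPM in *TKO*, with a single count over the 3 libraries of each mutant. It was called lower in both (adjusted p = 0.00484 and 0.0039), the ratio of *TKO* to the CARM1 knockout being 128 with an exact 95% counting interval of 22.7 to 5090, and to the NFIB mutant 125 with an interval of 22.1 to 4958. These intervals cover counting error only. *Pou3f2*, a factor of cortical neurons, was at 1.53, 0.437 and 0.309 CPM in *TKO*, 0, 0 and 10.4 CPM in the CARM1 knockout and 0 in the NFIB mutant, so that 1 mutant library held the highest level. *Pou3f3* was at 9.01, 0.393 and 0 CPM in *TKO* and at most 0.729 CPM in the mutants. Neither was tested. At the start sites, 4 of 7 peaks of the family were lower in the CARM1 knockout and 6 in the NFIB mutant. Of the start-site peaks of all genes, 34.6% and 38.6% were lower. The *Pou4f2* peak fell from 16.1 to 22.6 CPM in *TKO* to 1.64 to 4.72 CPM in the 6 mutant libraries, with the gene itself at or under 1.55 CPM in all. The *Pou3f1* peak was at 20.9 to 26.8 CPM in *TKO* and 19.5 to 27.6 CPM in the mutants and was not called in either (adjusted p = 0.967 and 0.308).

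LIM-homeodomain factors, which set the subtype of motor, sensory and forebrain neurons, were the largest family with 10 members, 8 of them tested. In each mutant 4 were lower and 2 higher. Of all genes tested, 18.3% were lower and 20.5% higher in the CARM1 knockout, and 23.5% and 22.3% in the NFIB mutant. *Lhx1*, which acts in interneurons and kidney, was at 64.7, 81.0 and 24.3 CPM in *TKO*, 0, 0.932 and 0 CPM in the CARM1 knockout and 0.182, 0 and 0.190 CPM in the NFIB mutant. The groups were far apart, with a log2 fold change of -7.46 ± 1.58 in the CARM1 knockout (adjusted p = 0.0105). Against the NFIB mutant the ratio was 457 with a counting interval of 209.6 to 1245 (adjusted p = 0.00621). Its relative *Lhx5*, a factor of the developing forebrain, was at 25.7, 0.655 and 1.28 CPM in *TKO* and had no count in the CARM1 knockout and 1 in the NFIB mutant. It was called lower in both (adjusted p = 0.0251 and 0.0270), the *TKO* mean being at least 50.7-fold that of the CARM1 knockout, though DESeq2 called neither and the mean rested on *TKO* library 1. *Lhx2*, a patterning factor of cortex and hair follicle, was at 37.9, 11.96 and 82.2 CPM in *TKO*, 2.44, 6.76 and 7.12 CPM in the CARM1 knockout and 15.3, 12.01 and 4.57 CPM in the NFIB mutant. The CARM1 knockout lay below *TKO* and the NFIB mutant overlapped with it, with log2 fold changes of -3.02 ± 0.80 (adjusted p = 0.0233) and -2.05 ± 0.77 (adjusted p = 0.0618). The second call was lost in 5 of 16 alternatives, 4 of them leaving out *TKO* library 1 or 3 or NFIB mutant library 2 or 3.

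Several LIM factors were on in some *TKO* libraries only. *Lhx9* was at 4.89, 0.437 and 12.9 CPM in *TKO*, 0, 0.350 and 0 CPM in the CARM1 knockout (log2 fold change -5.61 ± 2.03, adjusted p = 0.064) and 1.27, 0.493 and 0 CPM in the NFIB mutant (-3.35 ± 1.78, adjusted p = 0.158). The first call was lost when *TKO* library 1 or 3 or CARM1 knockout library 1 or 3 was left out. *Lhx3*, a motor neuron and pituitary factor, was at 1.82, 3.06 and 0.132 CPM in *TKO* and at most 0.168 CPM in the mutants, and was not tested. *Isl2*, a motor neuron factor, was at 8.25, 13.97 and 0.177 CPM in *TKO*, 0.0677, 2.33 and 0.729 CPM in the CARM1 knockout and 0.121, 0.123 and 0 CPM in the NFIB mutant. *TKO* library 3 overlapped with the mutants. *Isl2* was called lower in the NFIB mutant (-6.40 ± 1.90, adjusted p = 0.0294). The ratio was 90.5 with an interval of 35.1 to 333, which covers counting error only and not the spread among *TKO* libraries. In the CARM1 knockout the log2 fold change was -2.83 ± 1.55 (adjusted p = 0.184). It was called there at -3.37 without *TKO* library 3, and by DESeq2. *Isl1*, of motor neurons and islets, was at 0.0959, 0.0437 and 2.91 CPM in *TKO*, 0.0677, 0.117 and 0.168 CPM in the CARM1 knockout and 6.31, 0.801 and 2.54 CPM in the NFIB mutant. It was called in neither (adjusted p = 0.163 and 0.361), and leaving out *TKO* library 3 turned its log2 fold change in the CARM1 knockout to 0.75 and gave a call of 5.42 in the NFIB mutant.

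*Lhx6* and *Lhx8*, the LIM factors of interneurons and cholinergic neurons that come from the ventral forebrain, were the ones that were higher. *Lhx6* was at 0.527, 0.262 and 0.795 CPM in *TKO*, 5.22, 7.22 and 5.999 CPM in the CARM1 knockout and 10.2, 5.97 and 13.1 CPM in the NFIB mutant. No mutant library overlapped with *TKO*. The log2 fold change was 3.52 ± 0.56 in the CARM1 knockout (adjusted p = 0.00358) and 4.19 ± 0.58 in the NFIB mutant (adjusted p = 0.00168). The peak at its start, whose promoter is printed above, was at 5.41, 3.46 and 5.91 CPM in *TKO*, 13.7, 16.4 and 14.97 CPM in the CARM1 knockout and 17.2, 16.5 and 15.1 CPM in the NFIB mutant. It rose by 1.61 ± 0.27 (adjusted p = 0.000646) and 1.72 ± 0.27 (adjusted p = 0.000398) on the log2 scale. A smaller *Lhx6* start-site peak did not rise and was called in neither mutant. It was at 2.10 to 2.70 CPM in *TKO* and 0.863 to 3.63 CPM in the mutants. *Lhx8* had no count in *TKO*, 0.406, 1.81 and 0.112 CPM in the CARM1 knockout and 7.77, 1.48 and 0.0635 CPM in the NFIB mutant. Means were at least 5.71-fold higher and at least 22.9-fold higher than 3 counts per *TKO* library (adjusted p = 0.076 and 0.0343), but the third libraries of both mutants held 2 counts and 1 count. The CARM1 knockout call held in 8 of 14 alternatives and was lost without any 1 *TKO* library, CARM1 knockout library 1 or 2 or NFIB mutant library 2. The main *Lhx8* peak went the other way, at 4.20, 2.75 and 2.24 CPM in *TKO* and 0.904, 1.46 and 0.822 CPM in the CARM1 knockout. The fall was 1.52 ± 0.49 on the log2 scale (adjusted p = 0.0177). The other *Lhx8* start-site peak, with fewer counts, was called in neither mutant. It was at 0.860, 1.08 and 0.887 CPM in *TKO* and 0.827, 1.63 and 0.387 CPM in the CARM1 knockout. In the NFIB mutant this peak was at 3.26, 1.80 and 0.687 CPM. Of the 19 start-site peaks of the LIM family, 12 were lower and 1 higher in the CARM1 knockout. In the NFIB mutant, 9 were lower and 1 higher. The shares over all genes were 34.6% lower and 21.2% higher in the CARM1 knockout, and 38.6% and 21.6% in the NFIB mutant.

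Myt zinc fingers, which hold neurons in their fate by repressing other programs, and *Prox1*, a homeobox factor of neural precursors, islets, liver and lymphatic vessels, were highest among the mutants in 1 library. *Prox1* was the highest of the 46 per length in *TKO*, at 44.4 CPM per kb of exon, ahead of *Scrt1* at 15.6, *Lhx1* at 13.9 and *Myt1* at 13.3 CPM per kb. It was at 221, 533 and 363 CPM in *TKO*, 0.0677, 0.117 and 54.3 CPM in the CARM1 knockout and 2.61, 1.35 and 0 CPM in the NFIB mutant. All mutant libraries lay below *TKO*, and CARM1 knockout library 3 lay far above the other 5. The log2 fold change was -8.13 ± 2.47 in the NFIB mutant (adjusted p = 0.0313) and -4.36 ± 2.04 in the CARM1 knockout, which was not called (adjusted p = 0.129) and was called at -11.82 without library 3 (adjusted p = 0.00429) and by DESeq2. *Myt1* was at 88.3, 71.1 and 127 CPM in *TKO*, 0, 0 and 30.0 CPM in the CARM1 knockout and 0.303, 0 and 0 CPM in the NFIB mutant. Its log2 fold change was -9.77 ± 2.84 in the NFIB mutant (adjusted p = 0.0268) and -3.25 ± 1.99 in the CARM1 knockout (adjusted p = 0.227), again called without library 3 at -13.76. *Myt1l* was the steadiest factor in *TKO*, at 98.6, 98.5 and 98.6 CPM, against 0, 0 and 12.3 CPM in the CARM1 knockout and 0.303, 0 and 0 CPM in the NFIB mutant. Both mutants were lower by call, at -4.58 ± 1.92 (adjusted p = 0.0959) and -9.82 ± 2.56 (adjusted p = 0.0182). The CARM1 knockout call held in only 4 of 15 alternatives and was lost without any 1 of the other 8 libraries, while without CARM1 knockout library 3 it was -13.80. DESeq2 called *Myt1l* in neither mutant. *St18* was at 25.03, 73.6 and 27.5 CPM in *TKO*, 0.745, 0.0583 and 35.8 CPM in the CARM1 knockout and 0, 2.03 and 0.0635 CPM in the NFIB mutant. CARM1 knockout library 3 was thus within the *TKO* range, and only the NFIB mutant was called (-5.90 ± 2.35, adjusted p = 0.0741). This *St18* call was lost without any 1 *TKO* library or NFIB mutant library 1 or 3. It was also lost with DESeq2 and with no filter on low counts.

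**Figure D2:**
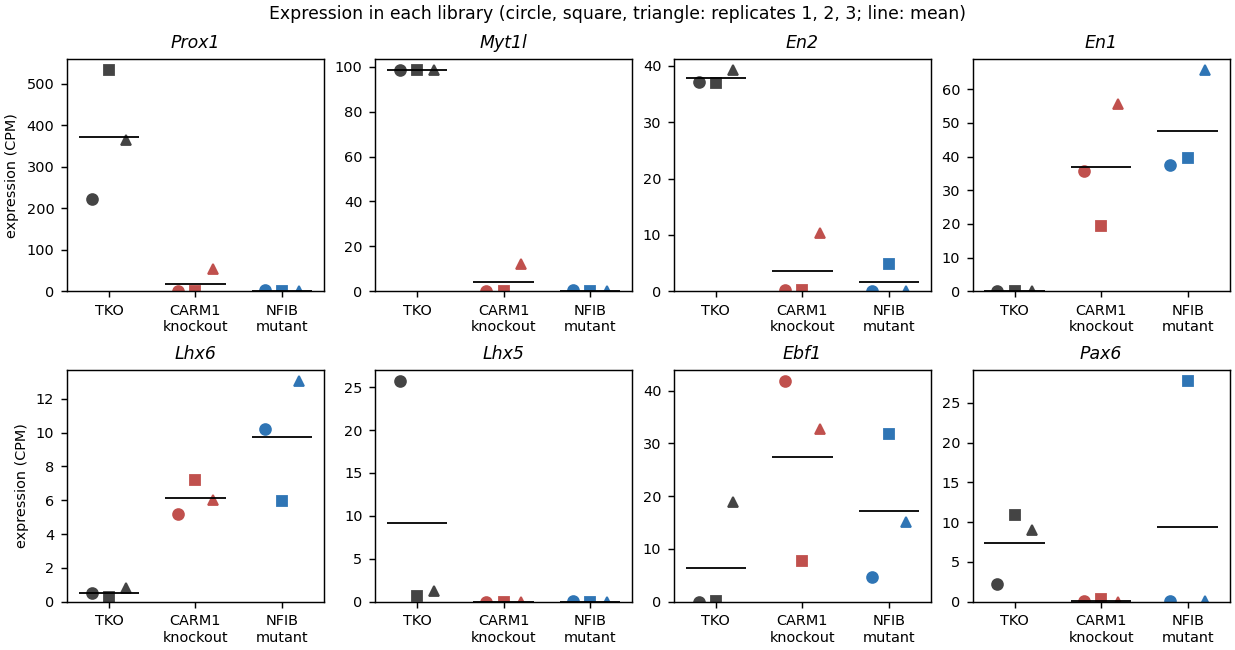
Expression (CPM, vertical axis from 0) of 8 factors in each library by genotype, with circle, square and triangle for libraries 1, 2 and 3 and a line at the mean. CARM1 knockout library 3 was the highest mutant library for *Prox1*, *Myt1l* and *En2*, *TKO* library 3 alone held *Ebf1* among the controls, and NFIB mutant library 2 alone held *Pax6* among the mutants.

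Of the 30 factors, 11 were highest in CARM1 knockout library 3 among the 6 mutant libraries, namely *Pou3f2*, *Pou3f3*, *Pou4f1*, *Lhx3*, *Myt1*, *Myt1l*, *St18*, *Prox1*, *En2*, *Scrt1* and *Scrt2*. How many of all genes were highest in CARM1 knockout library 3 was not counted, so these 11 are no trait particular to the factors. As a share of the *TKO* mean, this library had 85.3% for *St18*, 31.4% for *Myt1*, 27.3% for *En2*, 14.6% for *Prox1* and 12.5% for *Myt1l*, but 0% for *Lhx1*, *Lhx5*, *Lhx9*, *Tlx3* and *Pax6*. It was also the mutant library with the highest neuroendocrine genes. Of their sum of 1953 CPM, *Calca* made up 832 CPM, against 5.12 to 21.9 CPM of *Calca* in *TKO*, and without *Calca* the sum was 1122 CPM, below the 1764 to 3912 CPM of *TKO* and above the 33.4 to 188 CPM of the other mutant libraries. The library had fibroblast genes at 25743 CPM, the highest of all 9 libraries. Without it, 18 factors were called in the CARM1 knockout in place of 15. Lymphatic vessel markers beside *Prox1* did not follow it: their sum was 0.265 to 1.92 CPM in *TKO* and 6.98 to 104 CPM in the mutants, nearly all of it *Flt4*, with *Lyve1*, *Ccl21a* and *Mmrn1* at or under 0.203 CPM in every library.

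The third CARM1 knockout library of ATAC-seq was the highest mutant library at the main start-site peak of 9 of these 11 factors, all but *Lhx3* and *En2*, where NFIB mutant library 2 was higher, although same-numbered RNA-seq and ATAC-seq libraries are not known to share an animal. The share over the start-site peaks of all genes was not counted here either. The main *Prox1* peak was at 34.2, 35.7 and 26.4 CPM in *TKO*, 2.09, 2.38 and 5.44 CPM in the CARM1 knockout and 3.23, 1.73 and 1.24 CPM in the NFIB mutant, a log2 fold change of -3.28 ± 0.46 (adjusted p = 0.000251) and -3.96 ± 0.48 (adjusted p = 9.78e-05). The *Myt1* peak was at 16.2, 12.1 and 9.71 CPM in *TKO*, 0.207, 0.461 and 3.07 CPM in the CARM1 knockout and 0.433 to 0.538 CPM in the NFIB mutant. Unlike the *Myt1* and *Prox1* transcripts, these peaks were called lower in the CARM1 knockout with all libraries in (for *Myt1* -3.35 ± 0.81, adjusted p = 0.00459). The main *Myt1l* peak was at 78.6, 86.4 and 41.1 CPM in *TKO* and at 0.577 to 1.08 CPM in the mutants except CARM1 knockout library 3, at 8.32 CPM, and in the NFIB mutant it had the lowest log2 fold change among the main peaks of the tested factors, -6.44 ± 0.97 (adjusted p = 0.000318). Of the 9 start-site peaks of the Myt family 8 were lower and 1 higher in both mutants. The exception, at an inner *Myt1l* start, was at 0.287 to 0.586 CPM in *TKO* and 0.919 to 1.73 CPM in the mutants. Over the start-site peaks of all genes, 34.6% were lower and 21.2% higher in the CARM1 knockout, and 38.6% and 21.6% in the NFIB mutant.

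Onecut factors act in liver, pancreas and motor neurons. *Onecut1* was at 5.18, 1.96 and 9.01 CPM in *TKO*, 0.0677, 0.408 and 0.0561 CPM in the CARM1 knockout and 0 in the NFIB mutant. Both mutants were called lower, by -4.87 ± 1.09 on the log2 scale in the CARM1 knockout (adjusted p = 0.0193) and at least 29.0-fold in the NFIB mutant (adjusted p = 0.00525). It shares 52.8% of its exon bases with another gene of the same strand, which had no count. Reads that fit both genes may have been set aside as ambiguous, so the *Onecut1* level may be too low. *Onecut2* was at 125, 169.7 and 47.5 CPM in *TKO*, 3.32, 10.3 and 32.7 CPM in the CARM1 knockout and 63.0, 4.43 and 0.508 CPM in the NFIB mutant. NFIB mutant library 1 lay inside the *TKO* range, and neither mutant was called (adjusted p = 0.169 and 0.231), while without that library the NFIB mutant was called at -5.52. The CARM1 knockout, at -2.88 ± 1.52 with all libraries, was called by DESeq2 and without NFIB mutant library 1 or 3. Its start-site peak was lower in both, at 79.3, 81.4 and 80.6 CPM in *TKO*, 23.4 to 34.7 CPM in the CARM1 knockout and 20.9 to 43.6 CPM in the NFIB mutant.

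Ebf factors, known from neurons and from B cells, gave no call among transcripts. *Ebf1* was at 0, 0.131 and 19.0 CPM in *TKO*, 41.9, 7.69 and 32.7 CPM in the CARM1 knockout and 4.61, 31.8 and 15.1 CPM in the NFIB mutant. *TKO* library 3 was in the range of the mutants, and all 6 mutant libraries were above the other 2 *TKO* libraries. The log2 fold changes of 2.10 ± 1.86 and 1.42 ± 1.82 were not called (adjusted p = 0.398 and 0.545), and without *TKO* library 3 both were, at 8.56 and 7.88. *TKO* library 3 also stood apart at the main *Ebf1* peak, at 23.8 CPM against 2.42 and 3.09 CPM in the other *TKO* libraries and 11.5 to 22.8 CPM in the mutants. The other 2 start-site peaks of *Ebf1* were higher in both mutants, and in the larger of them *TKO* library 3 was not apart, at 1.35 CPM against 0.987 and 1.64 CPM, with 2.66 to 11.9 CPM in the mutants. *Ebf3* was at 1.01, 1.83 and 0.706 CPM in *TKO*, 1.22, 0 and 0 CPM in the CARM1 knockout and 0.121, 0.123 and 0 CPM in the NFIB mutant, with no call (adjusted p = 0.438 and 0.111). It was called in the CARM1 knockout without its library 1, at -7.47, and in the NFIB mutant without any 1 CARM1 knockout library, at -3.74 to -3.71.

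Pax factors pattern the brain, eye, kidney and B cell lineage. *Pax5*, the B cell factor that is also active in the midbrain, was at 2.92, 29.7 and 46.3 CPM in *TKO*, 1.15, 0 and 0.224 CPM in the CARM1 knockout and 0.0607, 0.0616 and 4.19 CPM in the NFIB mutant. NFIB mutant library 3 overlapped with *TKO*. It was called lower in the CARM1 knockout (-5.85 ± 2.13, adjusted p = 0.0654), a call lost without *TKO* library 2 or 3 or CARM1 knockout library 2 or 3, and not in the NFIB mutant (-4.19 ± 1.95, adjusted p = 0.114), where leaving out library 3 gave a call at -8.59. DESeq2 and scaling by library totals alone also called *Pax5* in the NFIB mutant. B cell markers were near 0 beside it: 6 genes summed to at most 0.839 CPM in any library, and *Ms4a1* and *Blk* had no count in any. *Pax6*, of eye, brain and islets, was at 2.25, 10.9 and 8.96 CPM in *TKO*, 0.0677, 0.350 and 0 CPM in the CARM1 knockout and 0.121, 27.8 and 0.127 CPM in the NFIB mutant. NFIB mutant library 2 had the highest level of all 9 libraries. *Pax6* was called lower in the CARM1 knockout (-5.65 ± 2.30, adjusted p = 0.0892), a call lost without any 1 library of either group, and had 0.34 ± 1.82 in the NFIB mutant (adjusted p = 0.889), where leaving out library 2 gave a call at -5.81. The same library stood apart at the *Pax6* start, at 46.8 CPM against 12.7 and 3.53 CPM in the other NFIB mutant libraries, 7.47 to 8.58 CPM in the CARM1 knockout and 28.4 to 56.6 CPM in *TKO*. *Pax2* was seen above 3 counts in that library alone, at 4.13 CPM. Among the smaller start-site peaks of *Pax6*, 2 were called higher in the NFIB mutant, and library 2 was the highest at both. The first was at 0.747, 10.9 and 0.687 CPM, against 0.507 to 1.21 CPM in *TKO*. The second was at 0.807, 2.29 and 0.549 CPM, against 0.463 to 0.478 CPM in *TKO*. The main *Pax5* peak was lower in both mutants, at 19.9, 25.9 and 65.4 CPM in *TKO* and 2.84 to 8.00 CPM in all 6 mutant libraries.

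Engrailed factors mark the midbrain and hindbrain, and their start-site peaks were called in opposite directions. *En2* was at 37.2, 37.0 and 39.2 CPM in *TKO*, 0.203, 0.291 and 10.3 CPM in the CARM1 knockout and 0.0607, 4.87 and 0 CPM in the NFIB mutant. All mutant libraries were below *TKO*, but neither log2 fold change was called (-3.39 ± 1.97, adjusted p = 0.206, and -4.52 ± 2.09, adjusted p = 0.111), and both were without CARM1 knockout library 3. The NFIB mutant was also called without its library 2, at -9.97. *En1* had no count in *TKO* libraries 1 and 3 and 2 counts in library 2, and was at 35.8, 19.4 and 55.5 CPM in the CARM1 knockout and 37.4, 39.7 and 65.7 CPM in the NFIB mutant. No other factor had an adjusted p as small (0.000606 and 0.000432). Pooled counts gave ratios to *TKO* of 1236 with a counting interval of 342 to 10212, and 1573 with an interval of 435 to 12996. Per kb of exon, *En1* in the NFIB mutant, at 18.1 CPM, was above every other of the 46 in that genotype. The *En1* start-site peak was at 5.54, 6.39 and 7.98 CPM in *TKO*, 34.0, 23.4 and 29.0 CPM in the CARM1 knockout and 37.2, 31.3 and 43.2 CPM in the NFIB mutant, a rise of 2.12 ± 0.22 (adjusted p = 5.89e-05) and 2.49 ± 0.23 (adjusted p = 2.5e-05) on the log2 scale. The *En2* peak was at 51.6 to 58.4 CPM in *TKO* and 3.36 to 14.2 CPM in the mutants, a fall of 2.64 ± 0.47 (adjusted p = 0.000874) and 2.69 ± 0.47 (adjusted p = 0.000713).

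*Tlx3* and the Scratch repressors were low in every mutant library. *Tlx3*, a selector of sensory relay neurons, was at 15.1, 6.46 and 12.2 CPM in *TKO*, 0, 0.233 and 0 CPM in the CARM1 knockout and 0 in the NFIB mutant. Calls were lower in both, by -7.03 ± 1.44 on the log2 scale (adjusted p = 0.015) and at least 60.5-fold (adjusted p = 0.007). *Scrt1*, a neuronal zinc finger repressor, was at 54.9, 66.7 and 83.6 CPM in *TKO*, 0.474, 0.466 and 4.15 CPM in the CARM1 knockout and 0.728, 0.246 and 0 CPM in the NFIB mutant, and fell by 5.32 ± 1.21 (adjusted p = 0.0138) and 7.68 ± 1.38 (adjusted p = 0.00456). *Scrt2* was at 20.7, 16.7 and 14.2 CPM in *TKO*, 0, 0 and 0.561 CPM in the CARM1 knockout and 0 in the NFIB mutant, lower by -6.44 ± 1.6002 (adjusted p = 0.0272) and at least 92.6-fold (adjusted p = 0.0104). The 3 calls in each mutant held in every alternative in which the gene was tested. Among all main peaks, that of *Scrt2* had the smallest adjusted p in both mutants, at 61.1 to 67.7 CPM in *TKO* and 3.69 to 8.78 CPM in the 6 mutant libraries (-3.48 ± 0.29, adjusted p = 1.9e-05, and -3.91 ± 0.30, adjusted p = 1.09e-05).

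**Figure D3:**
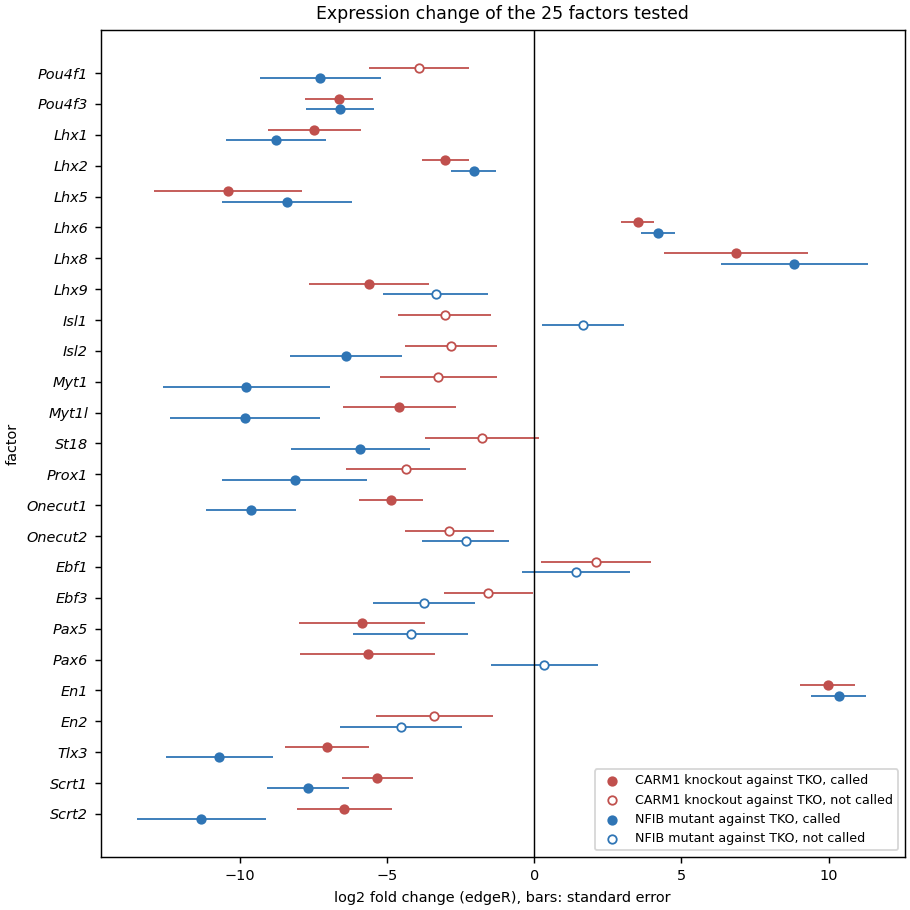
Log2 fold change against *TKO* (horizontal axis, with bars of 1 SE) of the 25 factors tested (vertical axis) in the CARM1 knockout (red) and the NFIB mutant (blue), filled where called. *En1*, *Lhx6* and *Lhx8* are called to the right in both, and the positions of factors with a group near 0, such as *En1*, *Lhx5*, *Onecut1*, *Tlx3* and *Scrt2*, depend on the prior count and are no measure or bound of size.

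The 16 factors under 1 CPM on average in every genotype were *Neurod2*, *Neurod6*, *Neurog1*, *Neurog2*, *Neurog3*, *Nhlh1*, *Nhlh2*, *Pou3f1*, *Pou3f4*, *Pou4f2*, *Lhx4*, *Onecut3*, *Ebf2*, *Pax8*, *Otx2* and *Nkx2-2*. None was above 2.43 CPM in any library, and *Neurod2* and *Otx2* had no count at all. A start-site peak was present for 11 of them all the same, and the main one was lower in both mutants for 8 and called in neither for 3. The matching share over all genes was not counted.

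No difference between the mutants was called, which does not show that they were alike. Between the CARM1 knockout and the NFIB mutant, edgeR's quasi-likelihood test called 0 factors and 0 start-site peaks, the same as over all genes (0.0%) and all peaks (0.0%). At an unadjusted p under 0.05 there were 4 of 25 factors and 8 of 67 peaks, against 9.11% of all genes and 5.35% of start-site peaks, and the smallest adjusted p was 0.526 for factors and 0.730 for peaks. DESeq2 called 1.97% of genes and 0.949% of peaks between the mutants, and among the members 2 factors and no peak: *Pax6* (-6.08, adjusted p = 0.0432) and *Isl1* (-4.77, adjusted p = 0.0579) were lower in the CARM1 knockout. For *Pax6* this rests on NFIB mutant library 2.

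**Figure D4:**
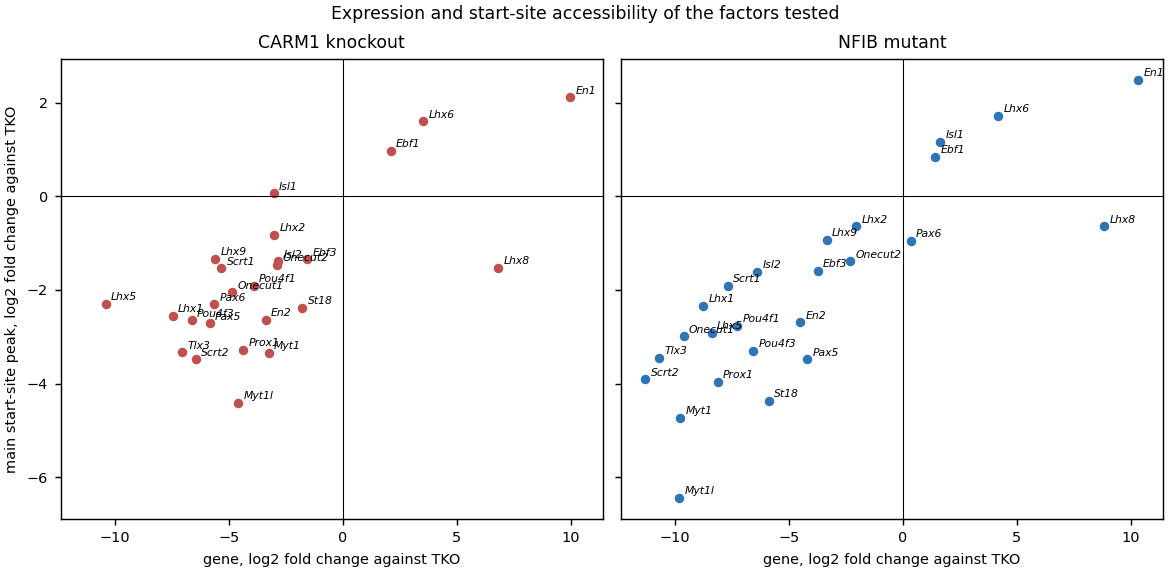
Log2 fold change against *TKO* of the main start-site peak (vertical axis) by that of the gene (horizontal axis) for the 25 factors tested, each a point, in the CARM1 knockout (left) and the NFIB mutant (right). Most factors lie at the lower left and *En1* and *Lhx6* at the upper right, while *Lhx8* lies at the lower right, and positions of factors with a group near 0 depend on the prior count and are no bound.

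*TKO* libraries also differed from each other. Of the 25 factors with a *TKO* mean of at least 1 CPM, 9 had a highest *TKO* library over 10 times the lowest (levels under 3 counts set to 3), against 8.11% of 13638 genes with that mean. They were *Pax5*, *Isl1*, *Lhx3*, *Lhx9*, *Lhx5*, *Pou3f3*, *Neurod4*, *Isl2* and *Ebf1*. A range under 3 times was seen for 11 of the 25, against 78.4% of those genes, and *Myt1l* and *En2* were the most even at 1.001 and 1.061 times. For all 9 uneven factors, the *TKO* library with the highest transcript level had the same number as the one with the highest main start-site peak, against 71.6% of 946 genes as uneven. *Lhx5*, for example, was highest in library 1 both as a transcript, at 25.7 CPM, and as a peak, at 27.5 CPM against 7.04 and 4.86 CPM, and *Isl2* was lowest in library 3 in both, at 0.177 CPM and at 0.464 CPM against 16.02 and 24.5 CPM. The study describes both assays as made on the same tumors, which was not tested here.

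Peaks inside the gene bodies, away from the start sites, were looked at once the values above were known. The 30 factors held 95 of them, of which 94 were tested. In the CARM1 knockout 58 were lower and 28 higher, and in the NFIB mutant 60 and 25. The shares of all peaks were 32.4% lower and 38.7% higher, and 34.0% and 39.3%. These are unlike sets, since the 30 factors were kept for a mean of at least 1 CPM in a genotype. Some, such as *Lhx1* and *Tlx3*, reached it in *TKO* alone, which by itself favours lower peaks, and all peaks had no such filter. Most of these peaks lay in *Myt1l* and *Ebf1*, and of the 45 tested in the other genes 30 were lower and 7 higher in the CARM1 knockout and 32 and 8 in the NFIB mutant. Inside *Myt1l*, 28 of 29 peaks were lower in each mutant, and their sum went from 269, 299 and 190.1 CPM in *TKO* to 17.2 to 33.9 CPM in the mutants. Inside *Prox1*, 7 of 8 were lower in the CARM1 knockout and 8 in the NFIB mutant, and the sum went from 33.2 to 49.4 CPM to 1.43 to 7.04 CPM. Inside *Pax5* all 6 were lower in both. *Ebf1* was the reverse, with 20 of 20 peaks higher in the CARM1 knockout and 16 in the NFIB mutant, and a sum of 5.13, 3.98 and 13.2 CPM in *TKO* against 44.1 to 81.5 CPM in the mutants. *TKO* library 3, which held *Ebf1* transcript at a mutant level, was below every mutant library here. *Onecut2* was mixed, with 1 lower and 2 higher in the CARM1 knockout and 1 lower and 3 higher in the NFIB mutant. Inside *Lhx6*, 2 of 3 peaks were lower and 1 higher in each mutant.

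**Figure D5:**
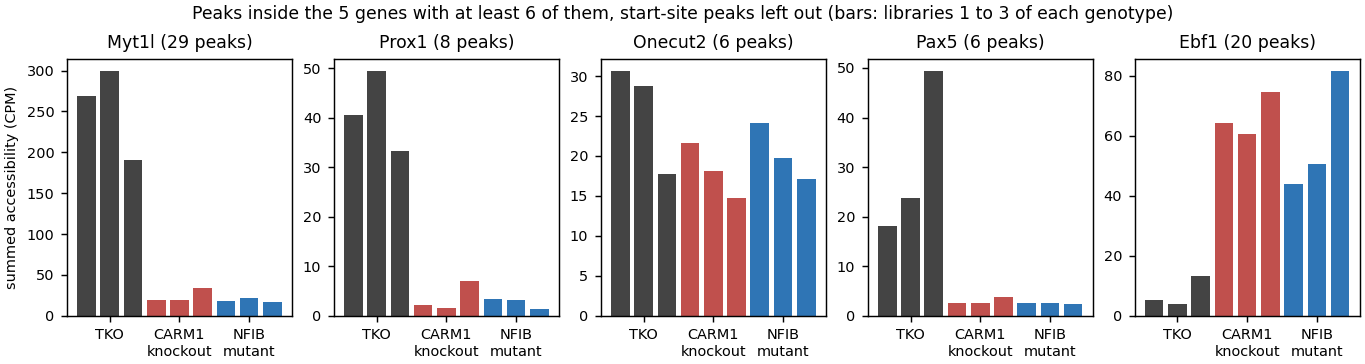
Summed accessibility (CPM, vertical axis from 0) of the peaks inside the 5 genes with at least 6 such peaks, start-site peaks left out, with 1 bar for each library in the order 1 to 3 within *TKO* (grey), the CARM1 knockout (red) and the NFIB mutant (blue). Bars of *Myt1l*, *Prox1* and *Pax5* are tall in *TKO* and short in all 6 mutant libraries, those of *Ebf1* the reverse, and those of *Onecut2* overlap.

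Partners and repressors of these factors were read from lists of genes outside the 46. Over all genes tested, the median log2 fold change was -0.03 in the CARM1 knockout and -0.05 in the NFIB mutant. Among the E-proteins, the dimer partners of bHLH factors, 1 of 3 was lower in each mutant: *Tcf4* was at 262, 411 and 603 CPM in *TKO* and 105 to 172 CPM in the mutants (-1.77 ± 0.32 and -1.67 ± 0.32, adjusted p = 0.00589 in both), and the list median was -0.45 and -0.48. Id proteins, which block such dimers, went both ways. *Id2* was lower (-2.15 ± 0.69, adjusted p = 0.045, and -2.10 ± 0.69, adjusted p = 0.0414) and *Id3* higher, at 11.7 to 45.4 CPM in *TKO* and 62.6 to 127 CPM in the mutants (1.67 ± 0.48, adjusted p = 0.0308, and 1.54 ± 0.48, adjusted p = 0.0339), while *Id4* was called lower in the NFIB mutant (adjusted p = 0.0437) and not in the CARM1 knockout (adjusted p = 0.333). The list median was -1.98 and -1.65. Of the 6 Hes and Hey repressors of neural bHLH genes 3 were tested, and *Hes6*, which favours neurogenesis, and *Hey1* were lower in both, with list medians of -1.78 and -2.09.

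*Rest* was higher in every mutant library, at 4.17, 6.68 and 5.61 CPM in *TKO*, 60.1, 60.5 and 49.96 CPM in the CARM1 knockout and 57.4, 63.8 and 47.2 CPM in the NFIB mutant. The rise was 3.37 ± 0.24 (adjusted p = 0.000331) and 3.35 ± 0.24 (adjusted p = 0.000257) on the log2 scale, and CARM1 knockout library 3, at 49.96 CPM, was within the range of the NFIB mutant. Of the other 4 genes of that list, the REST corepressors, *Rcor3* was lower in both and *Rcor2* in the CARM1 knockout (-1.69 ± 0.71, adjusted p = 0.0974), and the list median was -0.58 and -0.71. Cofactors of LIM factors and the LIM-only proteins that compete for them had 9 genes, 8 tested, with 1 called higher in each mutant (*Ssbp4*, 0.94 ± 0.34, adjusted p = 0.0624, and 0.89 ± 0.34, adjusted p = 0.0622) and 3 lower in the NFIB mutant, *Lmo1*, *Lmo2* and *Lmo3*. The list median was -0.52 and -0.47. Of the Ebf partners *Zfp423* and *Zfp521*, *Zfp423* was lower in the NFIB mutant, where the ratio of *TKO* was 197 with a counting interval of 84.2 to 607, and the list median was -1.37 and -4.20. Other neural and endocrine fate factors numbered 23, of which 14 were tested. In the CARM1 knockout 4 were lower, and in the NFIB mutant 9 were lower and 1 higher, with medians of -3.13 and -4.79, against the 18.3% of all genes tested lower in the CARM1 knockout and 23.5% lower and 22.3% higher in the NFIB mutant. *Sox11*, of immature neurons, was at 341, 355 and 325 CPM in *TKO* and 0.123 to 35.7 CPM in the mutants and was lower in both (-4.39 ± 1.35, adjusted p = 0.0383, and -6.63 ± 1.51, adjusted p = 0.0112). *Insm1*, of neuroendocrine cells, was at 253 to 326 CPM in *TKO*, 0, 4.43 and 83.8 CPM in the CARM1 knockout and at most 0.789 CPM in the NFIB mutant, and was called in the NFIB mutant alone (adjusted p = 0.164 and 0.0147). Of 8 neuronal marker genes, 6 and 7 were lower, and their sum, 1108 to 2489 CPM among *TKO* libraries, was 269 CPM for CARM1 knockout library 3 and between 51.4 and 79.4 CPM for the other mutant libraries.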

How the data were processed

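RNA-seq and ATAC-seq were made by the authors from SCLC cells of *TKO*, CARM1 knockout and NFIB mutant mice, 3 libraries per genotype and assay. For RNA-seq the authors trimmed reads, mapped them to mm10 with HISAT2 and deposited raw gene counts from htseq-count, with no strand setting given in the sources used here. For ATAC-seq the authors mapped with Bowtie2, removed duplicates, called peaks with MACS2, left out regions of altered copy number and deposited raw counts over 1 merged peak set, made with featureCounts per the file header. Peaks left out that way cannot be seen here.

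Tests were run in R 4.3.3 (edgeR 4.0.16 with limma 3.58.1, and DESeq2 1.42.0 as an alternative). Python 3.11.15 was used for summaries and figures (scipy 1.17.1, numpy 2.4.6, matplotlib 3.10.9, pandas 2.3.3). In 1 model of 9 libraries, TMM scaling and filterByExpr were followed by the robust quasi-likelihood test, p-values were adjusted by Benjamini-Hochberg over the whole table, with the thresholds of the study for adjusted p and fold. The fits were tested on simulated data. The 5 summary entries of htseq-count were dropped before scaling. Reads outside annotated genes were 9.995 to 12.2% in *TKO* and 3.65 to 5.17% in the mutants. No 2 libraries held the same counts.

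Fitted fold changes are given with an SE that was worked back from the fold change and the statistic of the quasi-likelihood test. Where a group is near 0, both depend on the prior count. Where every library of a group was at 0, a fold is a lower bound against 3 counts in each library, and where each had at most 3 counts, a ratio of pooled counts with an exact 95% (Clopper-Pearson) interval is given. All such intervals cover counting error only, not the spread between libraries. Factors with a mean of at least 1 CPM in a genotype were named with their values by library, and of the other gene lists at most 3 called genes of the highest mean each. The main peak is the start-site peak with the most counts. Motifs were searched in the 250 bases before RefSeq starts on both strands. Alternatives were other scalings, filters, tests and thresholds, a fit of only the groups compared, a replicate block, other peak windows and leaving out each library. Members and lists were chosen with earlier results of these data known.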

Additional observations from a re-analysis of the deposited data

How the results depend on the processing

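Counts of called factors and peaks kept within 1.5 times in most alternatives. Requiring 10 counts in every library left 1 factor to test and 1 call in each mutant against *TKO*, and DESeq2 gave 2 calls between the mutants in place of 0. Leaving out each library in turn gave 11 to 18 called factors in the CARM1 knockout, 15 to 20 in the NFIB mutant and 0 to 0 between them, and 45 to 51, 44 to 50 and 0 to 0 called peaks. The stricter thresholds (adjusted p under 0.05, log2 fold change of at least 1) gave 10 and 15 factors and 44 and 42 peaks. For single factors, 705 alternative values kept their call and direction, 57 lost a call and 35 gained one, and no called value changed sign. A replicate block gave 13 and 17 called factors and 51 and 50 called peaks, and none between the mutants. Within an assay, same-numbered libraries of different genotypes did not deviate together, with correlations of -0.26 to 0.12 in RNA-seq and -0.15 to 0.11 in ATAC-seq. In 3 of 9 comparisons of a library with another genotype, in each assay, the same number gave the highest correlation. The numbers were therefore not read as pairs across genotypes. These correlations did not compare RNA-seq with ATAC-seq libraries. Depth limits factors near 3 counts, and 3 libraries per group limit those that 1 library decides.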
